A study of Mus musculus with 7 samples.

Results

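The genes described here are those of the kinesin superfamily, the motor proteins that move along microtubules, measured in the optic nerves of mice that lack fatty acid synthase (FASN) in the oligodendrocyte (OL) lineage. Members are all genes of the deposited matrix whose name begins with Kif followed by a digit or a c, together with the 4 kinesin light chain genes Klc1 to Klc4, if their level was at least 0.5 FPKM in at least 3 of the 7 samples. FPKM corrects a fragment count for library size and for transcript length, so levels of different genes can be compared. Of 45 genes with such a name, 41 met this rule, among 13866 genes that met it in the whole matrix of 22880 genes. By their known roles, 20 members were placed in a transport class, 13 in a mitotic class and 8 in a class of other functions.

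RNA was sequenced from optic nerves at P14 (postnatal day 14) of 4 control mice (CT) and 3 conditional mutant mice (cMU). Per the labels, all 7 mice carry the floxed Fasn allele on both chromosomes (FASN lox/lox), although the study's methods also allow controls with a single floxed allele for its developmental work, and the mutants carry in addition Cre recombinase under the Olig2 promoter (olig2cre FASN lox/lox), which no control carries. The floxed allele arose in 129X1/SvJ mice and was bred for at least 3 generations to C57Bl/6, and both nerves of 1 mouse made 1 sample. Cre under this promoter deletes Fasn in OL progenitors (OPCs) and OLs, whereas astrocytes, microglia, vessels, meninges and the axons of retinal ganglion cells share the nerve, and in such bulk tissue less RNA per cell cannot be told apart from fewer cells of a type.

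Kinesins convert ATP into steps along microtubules, most of them towards the plus end. In axons, conventional kinesin, built of heavy chains (Kif5a, Kif5b, Kif5c) and cargo-binding light chains (Klc1 to Klc4), and the kinesin-3 motors carry vesicles, mitochondria and cytoskeletal proteins away from the cell body, and OLs use kinesins to bring mRNA and membrane to their processes. Other kinesins build the spindle and the cleavage furrow of dividing cells, act in cilia, or take microtubules apart.

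Fasn, the targeted gene, was checked first: its level was 210.3, 169.1, 211.1 and 228.3 FPKM in the controls and 69.3, 50.5 and 49.0 FPKM in the mutants. The mutant samples lay below all control samples, and the log2 fold change was -1.86 (SE 0.14, adjusted p = 0.0031, limma-trend with Benjamini-Hochberg adjustment over 13866 genes). OL markers were abundant in every sample, with Mbp between 17000 and 28870 FPKM, whereas the neuronal nuclear marker Rbfox3 lay between 0.74 and 1.90 FPKM and only 2 of 8 markers of photoreceptors and pigment epithelium reached the minimum level. Estimated depth ran from 27452222 to 43462575 reads per sample. Over all genes 175 were higher and 188 lower in cMU, a split of 48.2% higher calls that became 27.8% on the deposited normalized counts, 37.9% after rescaling by the median of ratios and 33.4% after quantile normalization. With the replicate number as a block, 890 genes were higher and 269 lower. CT replicate 4 has no mutant of the same number, so it added nothing to the fold changes of this fit.

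Of the 41 kinesin genes, 1 passed the threshold (adjusted p under 0.05), Kif19a, which fell in cMU. None was called higher, where 1.26% of all genes tested were, and Kif19a makes 1 lower call, where 1.36% of all genes tested were called lower. With the replicate block, the counts for the kinesins were the same (0 higher, and Kif19a lower), where 6.42% and 1.94% of all genes were called. At an unadjusted p under 0.05, 3 members were higher and 4 lower, where 15.9% and 8.5% of all genes were. By sign alone, 20 members had a positive and 21 a negative log2 fold change, beside 8329 and 5537 of all 13866 genes tested. The median was -0.02 over the members and 0.05 over all genes tested.

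Control and mutant samples did not overlap in FPKM for 7 members. All cMU samples lay above all CT samples for Kif3b, Kif16b, Kif1c and Kif13b, 4 of 41 members, where this held for 12.9% of all genes. All cMU samples lay below for Kif19a, Kif21a and Kif26a, 3 of 41 members, where this held for 8.26% of all genes. On the deposited normalized counts, 1 member lay above (Kif13b) and 5 below (Kif19a, Kif21a, Kif26a, Kif1a and Kifc1), where this held for 8.7% and 13.3% of all genes, and Kif3b, Kif16b and Kif1c overlapped between the groups.

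**Figure D1:**
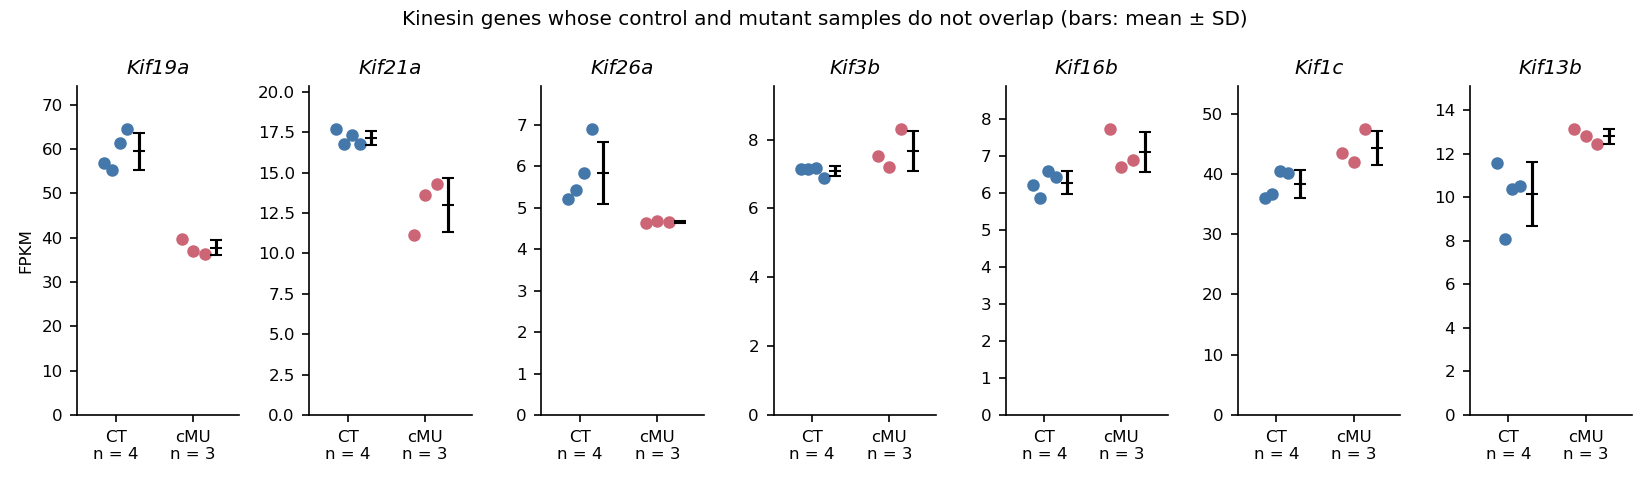
FPKM (vertical axes, from 0, a separate scale for each gene) of the 7 kinesin genes whose groups do not overlap, 1 point per mouse, with 4 CT samples in blue, 3 cMU samples in red and the mean ± SD as a black bar beside them. The gap is widest for Kif19a, from 55.2 FPKM in the lowest control to 39.65 FPKM in the highest mutant, and for Kif3b the groups are separated by only 7.178 against 7.193 FPKM.

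Kif19a is a kinesin-8, known as a motor that shortens microtubules at the tips of motile cilia. The gene lies at chr11:114765388-114790739 on the plus strand of GRCm38. Its level was 56.91, 55.2, 61.32 and 64.57 FPKM in CT replicates 1 to 4 and 39.65, 37.05 and 36.44 FPKM in cMU replicates 1 to 3. The mutants all lay below the lowest control, and the spread within each group was small beside the gap between them. The mean was 59.5 ± 4.25 FPKM (SD, n = 4) in CT and 37.7 ± 1.70 FPKM (SD, n = 3) in cMU, a log2 fold change of -0.65 (SE 0.07, adjusted p = 0.010 in limma-trend, and 0.023 with the replicate block), with 9 genes of smaller p in the whole matrix. The exact two-sided permutation test over samples gave p = 0.0571, the smallest value that 4 against 3 samples allow. The call was lost when CT replicate 3 (adjusted p = 0.055 in limma-trend) or cMU replicate 3 (adjusted p = 0.062) was left out, and it was kept in the other 13 of 15 alternative analyses, with fold changes from -0.73 to -0.61.

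Kif19a was the kinesin gene with the sixth highest level in the control nerve, next in rank after the 5 transport genes that led the family. Its control mean of 59.5 FPKM was well below that of Klc1, the last of these, at 147.2 FPKM. Markers of motile ciliated cells were low beside it: Foxj1, the master regulator of motile cilia, lay between 4.45 and 8.21 FPKM over all samples, and 3 of 8 genes of the ciliated list did not reach the minimum. Of the 5 ciliated markers tested, 3 were higher and 2 lower by sign and none passed the threshold, with a median log2 fold change of 0.11 that was near 0 after quantile normalization. The 10 markers of myelinating OLs all had a negative log2 fold change, with a median of -0.33 and 2 calls (Cnp and Mag). Both calls were lost with the replicate block, on the deposited normalized counts and with quantile normalization. They were also lost without any single sample except cMU replicate 2. The summed level of the 10 markers ran from 56978 to 64730 FPKM in CT and from 41486 to 53131 FPKM in cMU. Both this sum and Kif19a were thus lower in cMU, but within the groups their orders differed. CT replicate 2 had the highest sum (64730 FPKM) and the lowest control value of Kif19a (55.2 FPKM). Among the mutants, replicate 1 had the lowest sum (41486 FPKM) and the highest Kif19a (39.65 FPKM). The part of OLs in the Kif19a values was not tested.

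Kif26a, an atypical kinesin-11 without motor activity, was at 5.216, 5.42, 5.833 and 6.896 FPKM in CT and at 4.638, 4.681 and 4.654 FPKM in cMU. The mutant samples lay close together below all controls, of which replicate 4 was the highest. The log2 fold change of -0.29 (SE 0.11, adjusted p = 0.14) did not pass the threshold. Kif2a, a microtubule depolymerase that limits the growth of axon branches, was the second most abundant gene of the other class, at 21.91, 20.68, 18.96 and 20.14 FPKM in CT and 20.03, 22.38 and 21.29 FPKM in cMU. The groups overlapped, the log2 fold change was 0.06 (SE 0.07, adjusted p = 0.67), and it turned to -0.02 on the deposited normalized counts. Kif2a shares part of its locus with Dimt1 on the other strand, and whether the counting used strand is not given in the sources used here.

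The remaining 5 members of this class stood between 0.944 and 3.80 FPKM. They were Kif7, a ciliary regulator of Hedgehog signalling, Kif6 and Kif9, kinesin-9 motors of motile cilia, Kif24, a centriolar depolymerase, and Kif26b, and their groups all overlapped. Over the 8 members of other functions, 4 were higher and 4 lower by sign and 1 passed the threshold. Their median log2 fold change was -0.00048, with a sign that turned in several alternatives.

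The family was dominated by a few transport motors. In the controls, Kif1b, Kif5a, Kif1a, Kif5b and Klc1 each had a mean above 100 FPKM and together made up 79.6% ± 0.25 (SD, n = 4) of the summed FPKM of all kinesin genes, against 79.4% ± 1.9 (SD, n = 3) in cMU. The summed level of all members was 1706 ± 60.9 FPKM in CT and 1655 ± 163 FPKM in cMU. The mitotic genes, by contrast, summed to 20.4 ± 4.3 FPKM in CT.

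**Figure D2:**
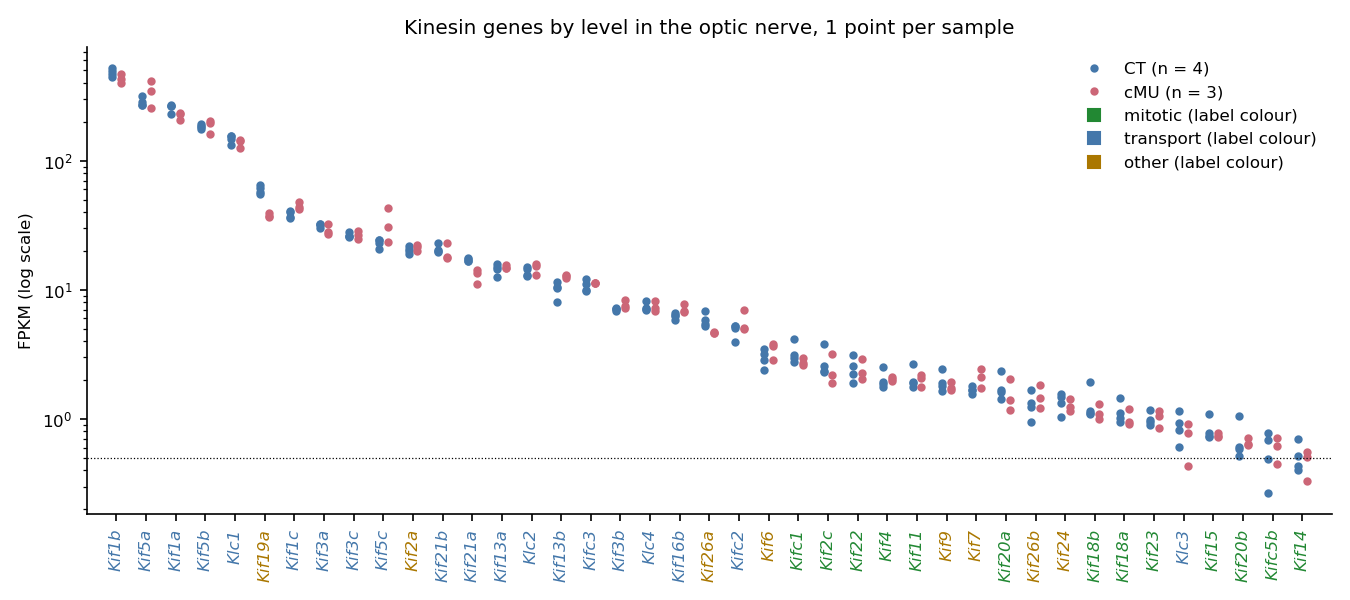
Level of each of the 41 kinesin genes in FPKM (log scale), ordered by the median over samples, with 4 CT samples in blue and 3 cMU samples in red, 1 point per mouse. Gene names are coloured by class (green mitotic, blue transport, brown other) and the dotted line is the minimum of 0.5 FPKM: Kif1b leads at 397 to 520 FPKM, and all 13 mitotic genes stand below 5 FPKM.

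Kif1b, a kinesin-3 that carries mitochondria and vesicle precursors, was the most abundant member, at 519.5, 448.0, 466.4 and 492.9 FPKM in CT and 397.3, 469.5 and 425.2 FPKM in cMU. The cMU sample with replicate number 2 lay within the control range and the other mutant samples below it. The log2 fold change was -0.16 (SE 0.08, 95% interval -0.35 to 0.02, adjusted p = 0.26). Kif1a, the related axonal motor of synaptic vesicle precursors, was at 267.2, 230.8, 269.2 and 266.0 FPKM in CT and 205.0, 228.6 and 234.7 FPKM in cMU. Its groups overlapped only through CT replicate 2 and cMU replicate 3, and the log2 fold change of -0.21 (SE 0.08, adjusted p = 0.15) did not pass the threshold. In the controls the ranges of Kif1a and Kif5a overlapped, so the order of these levels was not sharp.

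The heavy chains of conventional kinesin varied more among the mutants than among the controls. Kif5a, a heavy chain known from neurons, was at 269.7, 268.0, 317.8 and 284.4 FPKM in CT and 254.3, 411.3 and 347.7 FPKM in cMU. The mutants thus held both the lowest and the highest values, and the log2 fold change of 0.22 (SE 0.15, adjusted p = 0.38), which was 0.065 without cMU replicate 2 and 0.41 without cMU replicate 1, did not pass the threshold. Kif5c, the other heavy chain known from neurons, described here after its values were seen, was at 24.33, 20.78, 24.52 and 23.05 FPKM in CT and 23.35, 30.4 and 42.68 FPKM in cMU. It had the highest fold change of the 41 members, 0.42 (SE 0.17, adjusted p = 0.17), but 1 mutant sample lay inside the control range. Without cMU replicate 3 its fold change was 0.20, below that of Kif13b at 0.35, and without cMU replicate 1 it was 0.63. Kif5b, the heavy chain found in all cell types, lay between 177.3 and 192.0 FPKM in CT and between 161.8 and 203.0 FPKM in cMU.

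Neuron and axon markers were read beside Kif5a and Kif5c. All 11 such markers tested, of 12 listed, were higher by sign, with a median log2 fold change of 0.33 and no call, and 2 calls with the replicate block. Their summed level was 75.2, 74.1, 88.4 and 80.8 FPKM in CT and 93.5, 93.5 and 122.0 FPKM in cMU. In every sample this sum was below the level of Kif5a alone. The mutant sample with the highest sum, replicate 3, was also the highest for Kif5c. Kif5a was instead highest in cMU replicate 2, at 411.3 FPKM, against 347.7 FPKM in cMU replicate 3. The parts of neurons, OLs and other cells in the Kif5c and Kif5a values were not tested. Within the 3 heavy chains, Kif5a made up 57.8% ± 2.2 (SD, n = 4) of the summed FPKM in CT and 60.4% ± 3.1 (SD, n = 3) in cMU.

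Among the light chains, Klc1 was the leading gene, at 131.9, 147.4, 155.4 and 154.1 FPKM in CT and 125.8, 142.8 and 145.7 FPKM in cMU. The groups overlapped and the log2 fold change was -0.09 (SE 0.08, adjusted p = 0.51); Klc1 overlaps Xrcc3 on the other strand. Klc2 lay between 12.8 and 15.9 FPKM over all 7 samples, Klc4 between 6.89 and 8.22 FPKM, and Klc3 between 0.432 and 1.16 FPKM. The summed light chains stood at 0.343 ± 0.021 (SD, n = 4) of the summed heavy chains in CT and at 0.295 ± 0.045 (SD, n = 3) in cMU, with overlapping ranges.

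3 kinesin-3 genes were separated between the groups, each with higher levels in cMU. Kif13b, a vesicle motor that binds the scaffold Dlg1, was at 11.55, 8.068, 10.36 and 10.52 FPKM in CT and 13.13, 12.8 and 12.45 FPKM in cMU. The mutants were close together above the highest control, and the log2 fold change was 0.33 (SE 0.11, adjusted p = 0.13). Kif1c, another vesicle motor, was at 35.95, 36.64, 40.43 and 40.12 FPKM in CT and 43.49, 42.0 and 47.45 FPKM in cMU. Its groups were also separate, with a log2 fold change of 0.21 (SE 0.07, adjusted p = 0.13, and 0.085 with the replicate block). Kif16b, which moves early endosomes, was at 6.214, 5.868, 6.585 and 6.423 FPKM in CT and 7.73, 6.714 and 6.893 FPKM in cMU. The gap was narrow, from 6.585 to 6.714 FPKM, and the log2 fold change was 0.17 (SE 0.09, adjusted p = 0.26). On the deposited normalized counts the fold changes were 0.27 for Kif13b, 0.13 for Kif1c and 0.10 for Kif16b, and the latter genes overlapped between the groups there. Kif13a, another kinesin-3, lay between 12.55 and 15.76 FPKM in CT and between 14.8 and 15.64 FPKM in cMU. Of the 7 kinesin-3 genes, 4 were higher and 3 lower by sign, with Kif1a at -0.21 and Kif1b at -0.16 among the lower.

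Kif3a and Kif3b pair as the motor subunits of heterotrimeric kinesin-2, which serves intraflagellar and vesicle transport. Kif3b was at 7.154, 7.15, 7.178 and 6.886 FPKM in CT and 7.515, 7.193 and 8.311 FPKM in cMU. The controls were nearly alike and the lowest mutant was barely above the highest control, with a log2 fold change of 0.10 (SE 0.08, adjusted p = 0.45) that was 0.033 on the deposited normalized counts and 0.020 with quantile normalization. Kif3a lay between 30.1 and 32.3 FPKM in CT and between 27.0 and 32.1 FPKM in cMU, and Kif3c, which also pairs with Kif3a, between 24.7 and 28.6 FPKM over all samples. Kifap3, the accessory subunit that joins this motor to cargo, was at 25.9, 23.5, 24.4 and 23.0 FPKM in CT and 19.9, 19.5 and 21.98 FPKM in cMU. All 3 mutants were below the controls, but the log2 fold change of -0.24 (SE 0.07, adjusted p = 0.098) did not pass the threshold.

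Kif21a, a kinesin-4 known from neurons that also restrains microtubule growth, was the transport gene with the smallest p. It was at 17.71, 16.77, 17.33 and 16.78 FPKM in CT and 11.12, 13.61 and 14.27 FPKM in cMU. The controls lay within 1 FPKM of each other and all mutants below them. The log2 fold change of -0.39 (SE 0.09) narrowly missed the threshold (adjusted p = 0.057 in limma-trend, and 0.055 with the replicate block). It passed on the deposited normalized counts (adjusted p = 0.045) and when cMU replicate 2 was left out (adjusted p = 0.0495). Its paralogue Kif21b lay between 19.76 and 23.24 FPKM in CT and between 17.66 and 22.93 FPKM in cMU, with overlapping groups.

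The minus-end directed Kifc2 and Kifc3 also had overlapping groups, with Kifc2 between 3.92 and 7.03 FPKM and Kifc3 between 9.81 and 12.1 FPKM over all samples. In all, 13 of the 20 transport genes were higher and 7 lower by sign, beside 8329 higher and 5537 lower over all genes tested. None of the 20 passed the threshold in limma-trend, and 5 had an unadjusted p under 0.05, where 24.4% of all genes had. The median log2 fold change of the transport genes was 0.03, and 0.07 over the 15 that have no second role outside transport. It turned to -0.043 on the deposited normalized counts and to -0.011 after rescaling by the median of ratios, where the median of all genes was -0.03 and 0.0055.

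**Figure D3:**
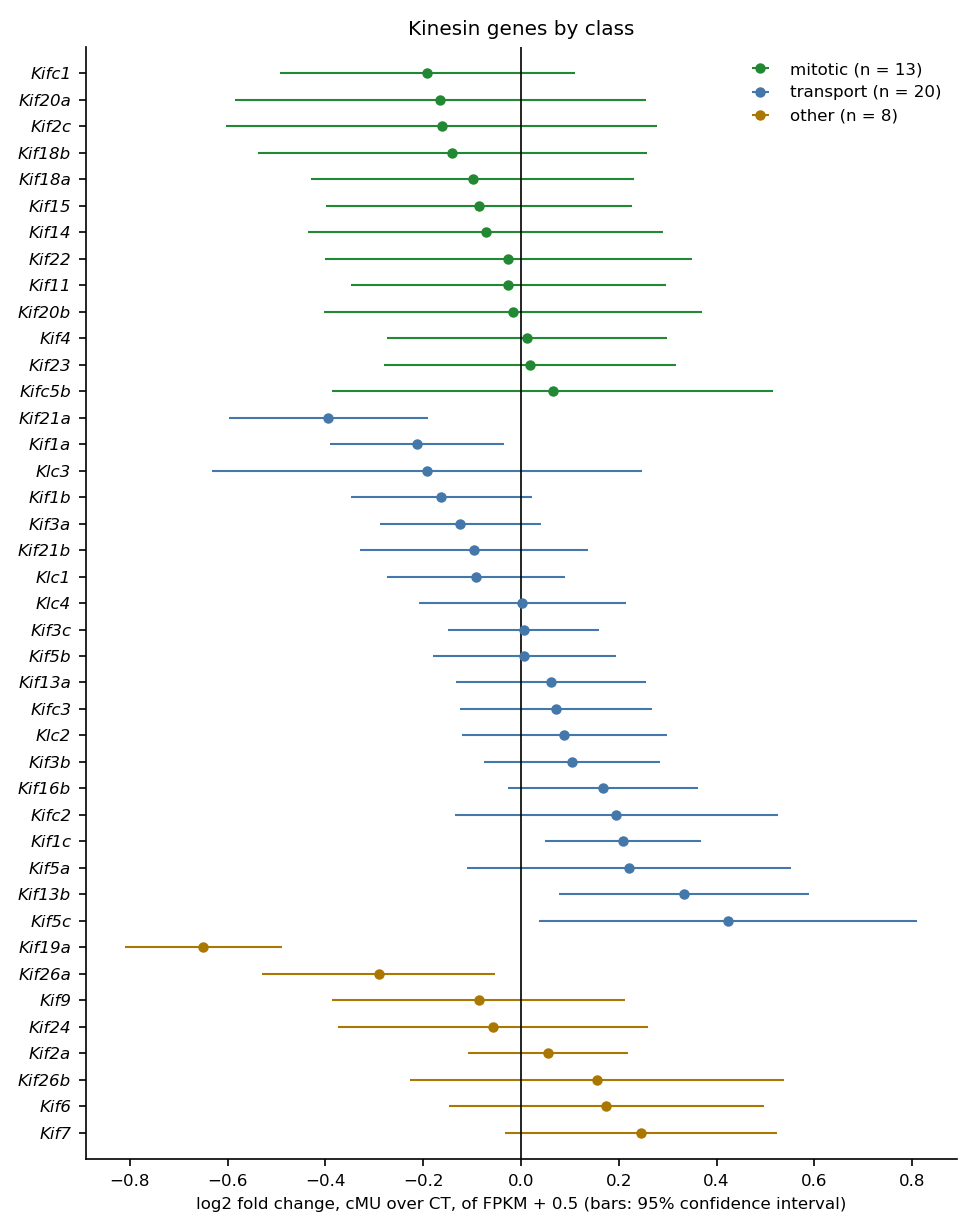
Log2 fold change of FPKM + 0.5, cMU over CT (horizontal axis), for the 41 kinesin genes in 3 classes (13 mitotic in green, 20 transport in blue, 8 other in brown), with bars for the 95% confidence interval of limma-trend before any adjustment. Kif19a at -0.65 stands apart, the transport genes spread from -0.39 to 0.42, and the interval of every mitotic gene includes 0.

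The 13 mitotic kinesins were the lowest class by level. Kifc1, a minus-end directed spindle motor, had the highest level, at 4.139, 2.775, 2.991 and 3.117 FPKM in CT and 2.945, 2.63 and 2.711 FPKM in cMU. Kif2c, the centromeric depolymerase MCAK, was at 3.811, 2.573, 2.337 and 2.312 FPKM in CT and 3.163, 2.183 and 1.895 FPKM in cMU. Kif22, the chromokinesin Kid, was at 3.121, 2.247, 1.885 and 2.585 FPKM in CT and 2.902, 2.027 and 2.26 FPKM in cMU. In all of them CT replicate 1 was the highest of the 7 samples, and the groups overlapped. The log2 fold changes were -0.19 for Kifc1 (SE 0.13, 95% interval -0.49 to 0.11, adjusted p = 0.40), -0.16 for Kif2c (SE 0.19, adjusted p = 0.64) and -0.03 for Kif22 (SE 0.17, adjusted p = 0.94), the last with a sign that turned in 5 alternatives.

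All 13 mitotic genes, from the spindle motors Kif11 and Kif15 to the cytokinesis motors Kif14, Kif20a, Kif20b and Kif23, had their highest value of the 7 samples in CT replicate 1. There they stood at 1.25 to 1.87 times the mean of the other controls, with a median of 1.46. In cMU replicate 1 they stood at 0.94 to 1.58 times the mean of the other mutants, with a median of 1.26, so not every gene was high there. Their summed level was 26.8, 18.3, 17.8 and 18.7 FPKM in CT and 21.4, 17.3 and 17.6 FPKM in cMU, so replicate 1 was the highest sample in each genotype and the other 5 lay between 17.3 and 18.7 FPKM. Within each of the 3 same-numbered pairs the mutant had the lower sum, though barely for replicate 3 (17.8 against 17.6 FPKM). Of the 13 genes, 6 (Kifc1, Kif2c, Kif20a, Kif18a, Kif18b and Kif14) were lower in the mutant in all 3 pairs and 0 higher in all 3. Of 20 transport genes, 5 were lower and 5 higher in all pairs, and of 8 genes of other functions 2 and 2. The share of all genes with such an order was not computed, so these counts show no difference between the classes. The 13 mitotic genes, all highest in CT replicate 1, are also not independent of each other. In the other classes, CT replicate 1 was the highest sample for 3 of 20 transport genes and for 0 of 8 genes of other functions.

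The list of 25 further mitosis genes, among them Mki67, Top2a and Cdk1, also had its highest mean in CT replicate 1, followed by cMU replicate 1. Of these, 21 were highest in CT replicate 1, and their mean log2 level relative to the control mean was 0.35, -0.09, -0.13 and -0.13 in CT and 0.06, -0.17 and -0.18 in cMU, beside 0.32, -0.11, -0.13 and -0.08 in CT and 0.06, -0.13 and -0.13 in cMU for the mitotic kinesins. Fibroblast markers were also high in the same samples, with sums over 6 genes of 1172, 607, 803 and 904 FPKM in CT and 1930, 1039 and 1033 FPKM in cMU. Their part in the mitotic values was not tested.

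**Figure D4:**
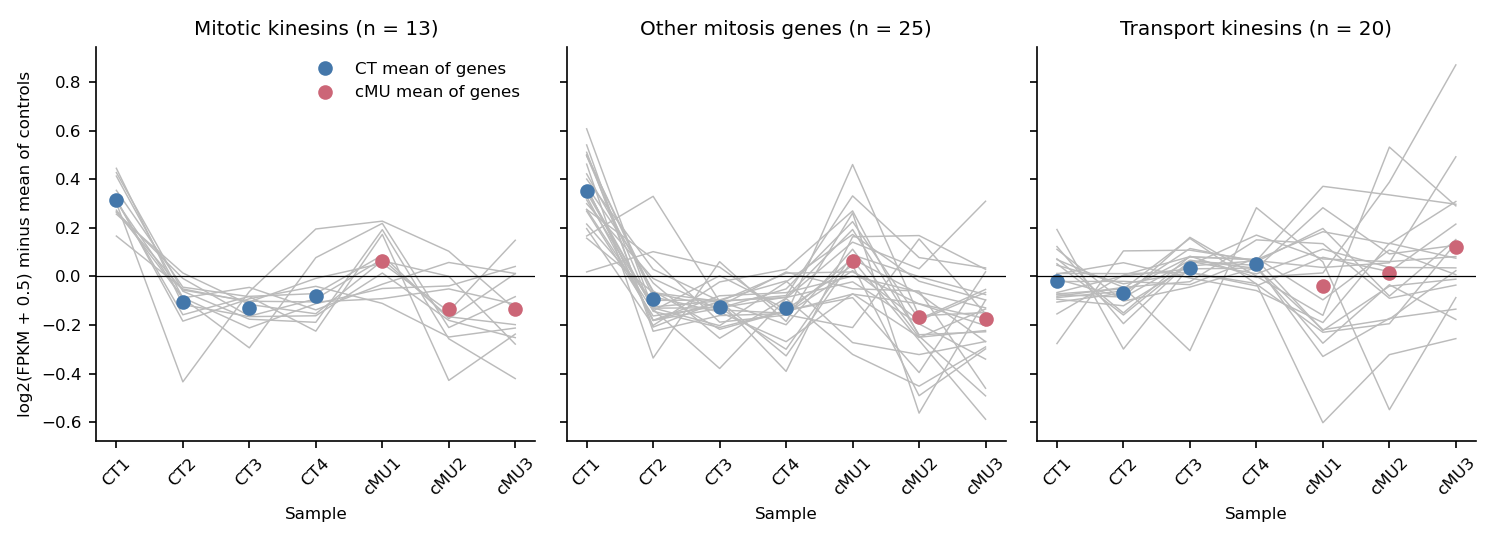
Log2(FPKM + 0.5) minus the mean of the controls (vertical axis) in each of the 7 samples, for 13 mitotic kinesins, 25 other mitosis genes and 20 transport kinesins, where a grey line joins the values of 1 gene and points are the means over genes (CT blue, cMU red). The mitotic kinesins have a mean of 0.32 in CT1 and 0.06 in cMU1 and lie below 0 in the other 5 samples, and the transport kinesins do not share this order.

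Between genotypes, 3 mitotic kinesins were higher and 10 lower by sign, none passed the threshold in limma-trend and 0 had an unadjusted p under 0.05. The median log2 fold change was -0.07, and 0.01 when CT replicate 1 was left out. It was -0.12 with the replicate block, -0.16 with quantile normalization and -0.21 on the deposited normalized counts. The block made no call in this class, and for Kif2c it narrowed the SE to 0.11 around a fold change of -0.23 (adjusted p = 0.26 in limma-trend). The median SD within the controls was 21.4% of the mean for the mitotic genes and 7.38% for the transport genes, and all mitotic means in the controls were under 5 FPKM. The narrowest 95% interval of the class before any adjustment, that of Kif4, ran from -0.27 to 0.30 on the log2 scale. Differences inside that range were not resolved at this spread, and larger ones could also miss the adjusted threshold. Kif21a, at -0.39 with a smaller SE of 0.09, did so. Kif4 overlaps Pdzd11, Kif20a overlaps Cdc23 and Kif18a overlaps Mettl15 on the other strand. Kifc1 and Kifc5b are near-identical paralogues between which reads can be split, and their separate values are uncertain.

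The promoters of the mitotic members, a class picked by known role, were compared with those of the other classes. Whether the motifs have a part in the levels of these samples was not tested. The promoters of genes expressed in dividing cells often hold a cell cycle homology region (CHR), TTTGAA, through which the DREAM and MuvB complexes act, and a CCAAT box, the site of NF-Y. RefSeq windows of GRCm38.p6, from 250 bases before to 50 bases after the annotated start, were found for 32 of the 41 members, among them 12 mitotic genes, and were searched for both motifs on both strands. TTTGAA occurred in 11 of 12 mitotic promoters (91.7%), in 1 of 15 transport promoters (6.67%, Kif1a), in 1 of 9 promoters of the other class (11.1%, Kif26b) and in 17.9% of all 32851 promoters. Of the mitotic genes, the window of Kif18a held no match and Kif20a had no entry. The RefSeq starts of Kif2c and Kif14 lie well inside the genes of the deposited table, downstream of their first bases (chr4:117182639 and chr1:136466343). Within 50 bases on either side of the start, 9 of 12 mitotic promoters (75.0%) held it, against 4.94% of all promoters. The genes of the mitosis list had it in 82.6% of 23 promoters. CCAAT occurred in 8 of 12 mitotic promoters (66.7%), in 40.0% of transport promoters and in 37.4% of all promoters, and the motifs do not overlap in sequence.

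The 30 bases around the match nearest the start are shown for the 3 mitotic genes of highest level, for the 4 whose CT replicate 1 stood apart most clearly, and for Kifc5b as the paralogue of Kifc1. Bases are written 5′ to 3′ on the strand of the gene. Capitals mark the motif, which reads TTCAAA where it lies on the opposite strand.
Kifc1, chr17:33890615-33890644, minus strand: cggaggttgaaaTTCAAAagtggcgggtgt
Kifc5b, chr17:26917108-26917137, plus strand: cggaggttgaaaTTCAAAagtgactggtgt
Kif2c, chr4:117178858-117178887, minus strand: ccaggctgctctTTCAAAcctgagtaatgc
Kif22, chr7:127042420-127042449, minus strand: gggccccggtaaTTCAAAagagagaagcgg
Kif11, chr19:37376351-37376380, plus strand: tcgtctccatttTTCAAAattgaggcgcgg
Kif15, chr9:122951050-122951079, plus strand: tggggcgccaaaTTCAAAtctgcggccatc
Kif18b, chr11:102925104-102925133, minus strand: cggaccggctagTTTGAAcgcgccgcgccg
Kif20b, chr19:34922353-34922382, plus strand: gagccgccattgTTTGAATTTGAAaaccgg
The motif begins 19 bases before the start in Kif11 and Kif15, 17 before it in Kif22 and 103 before it in Kif2c, and at base 2 after the start in Kifc1, 4 in Kif18b and 8 in Kif20b, which carries it again directly after the first copy. The windows of Kifc1 and Kifc5b share 28 of 30 bases.

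The stretch of 120 bases before the start of Kif18b, chr11:102925125-102925244 on the minus strand, shows the arrangement of both motifs, with 2 CCAAT boxes in capitals upstream of the CHR shown above.
Kif18b upstream: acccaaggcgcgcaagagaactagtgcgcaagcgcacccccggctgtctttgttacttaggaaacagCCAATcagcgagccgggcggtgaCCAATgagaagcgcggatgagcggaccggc
A match of letters is a description and does not show that a factor binds there. Kif13b, Kif19a, Kif20a, Kif21b, Kif5a, Kif5b, Kifc2, Kifc3 and Klc2 had no entry.

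**Figure D5:**
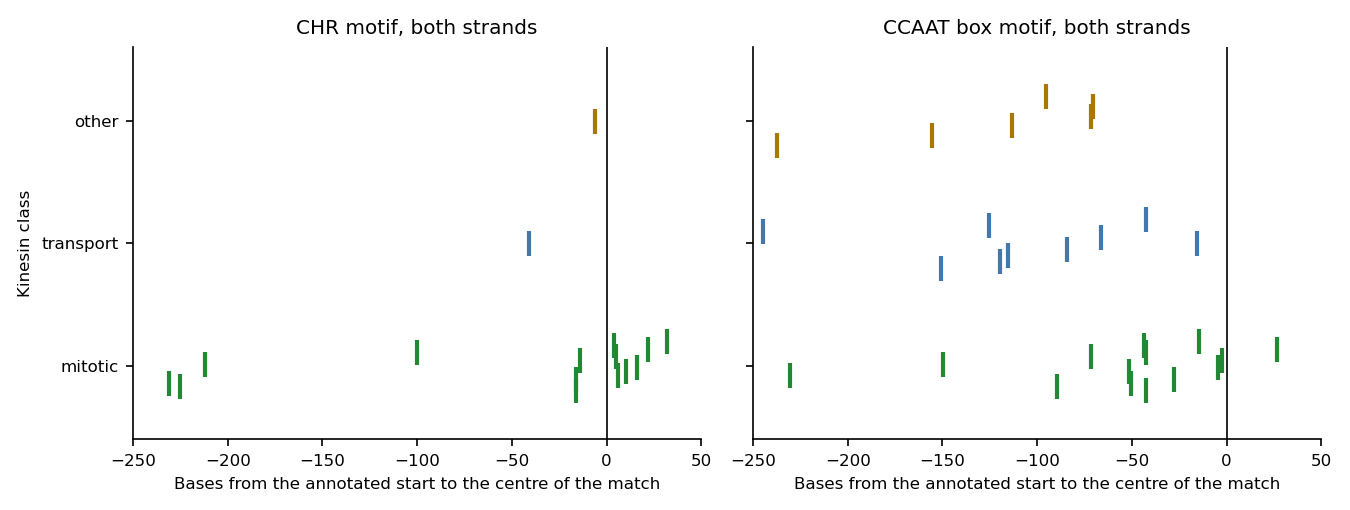
Position of each match of the CHR motif (left) and the CCAAT box motif (right) relative to the annotated start (horizontal axis, in bases, from 250 before to 50 after), for mitotic (green), transport (blue) and other (brown) kinesin genes, 1 tick per match. The CHR matches of 9 mitotic promoters gather within 50 bases of the start, and the transport and other classes have 1 match each.

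4 named genes did not reach the minimum. Kif17, a kinesin-2 motor, passed 0.5 FPKM in only 2 of 7 samples and overlaps Sh2d5 on the same strand, Kif27 lay between 0.245 and 0.351 FPKM, and Kif12 and Kif2b were listed at 0 in every sample. Just inside the rule were Kif14, between 0.331 and 0.704 FPKM, and Kifc5b, between 0.268 and 0.779 FPKM.

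Genes that work with the kinesins were taken from fixed lists. Of 26 motor partners, which link kinesins to cargo or control them, 14 were higher and 12 lower by sign with a median of 0.02, which turned to -0.057 on the deposited normalized counts and was also negative with the other scalings. Sybu, syntabulin, which links conventional kinesin to syntaxin cargo, rose by 0.41 on the log2 scale (SE 0.09, adjusted p = 0.049 in limma-trend), with means of 4.92 ± 0.23 FPKM in 4 controls and 6.73 ± 0.57 FPKM in 3 mutants. This call was lost with the replicate block (adjusted p = 0.066), with each other scaling and without any single sample (adjusted p between 0.052 and 0.15). With the block, the calls were instead Hap1, an adaptor of kinesin and dynein, with a log2 fold change of 0.44 (adjusted p = 0.033, against 0.38 without the block, where the fold change was 0.075 without cMU replicate 3), and Trak2, the mitochondrial adaptor of conventional kinesin, with -0.39 (adjusted p = 0.035). Cenpe, the kinetochore kinesin whose name falls outside the rule, lay between 3.33 and 4.59 FPKM in CT and between 2.90 and 3.67 FPKM in cMU (log2 fold change -0.14, adjusted p = 0.55 in limma-trend).

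Of 27 genes of cytoplasmic dynein, dynactin and their adaptors, which carry cargo in the opposite direction, 4 were higher and 23 lower by sign, with a median log2 fold change of -0.10 and no call, and 8 lower at an unadjusted p under 0.05, where 8.5% of all genes were. With the replicate block 1 was lower, the dynein light chain gene Dynll2, at -0.44 (adjusted p = 0.033). Of 26 microtubule-associated protein genes tested, of 27 listed, 6 were higher and 20 lower by sign with a median of -0.12. Map1a, which binds and stabilizes microtubules, fell by 0.36 on the log2 scale (SE 0.06, adjusted p = 0.025 in limma-trend), with means of 84.0 ± 4.0 FPKM in 4 controls and 65.3 ± 0.69 FPKM in 3 mutants. The call held with the replicate block and with each other scaling, and was lost without any 1 of the controls or cMU replicate 3 (adjusted p between 0.051 and 0.098). With the block, 2 genes of this list were lower, Map1a and Dcx, the doublecortin of young neurons, at -0.45 (adjusted p = 0.034, against 0.13 without the block). The median over all genes tested was 0.05.

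Markers of other cell types of the nerve were read beside these values. All 8 astrocyte markers were higher by sign, 4 of them past the threshold, with a median log2 fold change of 0.50. Of 6 OPC markers 5 were lower and 1 higher by sign, and 2 were lower past the threshold (Gpr17 and Cspg4), with a median of -0.25. These 2 calls held with the replicate block and each other scaling. They were lost without any single sample, apart from Gpr17 without cMU replicate 2. The paper counts Gpr17 among transcripts enriched in myelin-forming OLs, so its fall does not stand for OPCs alone. Pdgfra, another marker of the list, overlapped between the groups, from 38.1 to 58.1 FPKM in CT and from 39.3 to 47.4 FPKM in cMU. The 6 endothelial markers had a median of 0.32 and the 6 fibroblast markers of 0.55, with no call in limma-trend and 2 and 5 calls with the replicate block. The 8 microglia markers had a median of 0.14 with no call, and 1 with the block. The part of these cells in the kinesin values was not tested.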

How the data were processed

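Per the labels, poly(A) RNA of optic nerves was sequenced with a stranded kit in single end mode from 4 control and 3 mutant mice. The authors aligned reads with STAR 2.5.1b to GRCm38, quantified genes with RSEM 1.2.22 and used edgeR for their own comparison. They deposited a normalized count signal (the estimated count scaled per sample) and an FPKM value for each gene and sample, beside a log2 ratio, p-value and FDR of their comparison, which were not used.

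Here, log2(FPKM + 0.5) of genes with at least 0.5 FPKM in at least 3 samples was tested with limma 3.58.1 (limma-trend, R 4.3.3) with genotype as the only term, two-sided, with Benjamini-Hochberg adjustment over 13866 genes and a threshold of 0.05, after the code had been tested on simulated data. Fold changes on this scale understate those of low genes. Counts had been planned for alternatives, but only 77.9% to 83.6% of low values were whole reads (tolerance 0.1 read), so no count test was run, and depth is the estimate from that step. Replicates differed by more than sampling noise (median chi-square per gene 2.14 to 6.37). Same-numbered samples of the 2 genotypes deviated together (r 0.17 to 0.41 across genes over 3 pairs, against -0.35 to 0.21 for other pairs), so the labels' numbers were taken to pair the samples, although the labels do not say what a number stands for, and a second fit took this number as a block.

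Members, classes, lists and motifs were chosen with earlier results of these data known. Values in every sample are given for members past the threshold with or without the block, for those whose groups do not overlap, and for the 3 of highest median FPKM in each class, and Kif5c and Klc1 were added after their values were seen. Of the partner lists, genes past the threshold are named, with Kifap3 and Cenpe, and with Hap1, Trak2, Dynll2 and Dcx, which passed with the block but not in the fit without it. Promoters came from RefSeq tables of GRCm38.p6, and gene coordinates from the deposited table. A few marker genes and gene overlaps were left out of the text.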

Additional observations from a re-analysis of the deposited data

Results flagged for a closer look

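Each kinesin gene, Fasn and 3 class sums were searched for a control sample whose gap to the nearest of the others was too large a share of the range (Dixon's test for 4 samples, at its 95% critical value). Of 45 values 10 were marked, where chance marks about 1 in 20 groups. The marked values were not independent, since 6 of them were in CT replicate 1. There Kif11 at 2.658 FPKM, Kif15 at 1.089 FPKM, Kif18b at 1.943 FPKM and Kif20b at 1.062 FPKM were high, as was the summed level of the mitotic kinesins at 26.82 FPKM, and Kifc2 at 3.921 FPKM was low. CT replicate 4 was low for Kif3b at 6.886 FPKM and high for Kif3c at 27.95 FPKM. CT replicate 2 was low for Kif1a at 230.8 FPKM, and CT replicate 3 was high for Kif21b at 23.24 FPKM.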

How the results depend on the processing

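Over 15 alternatives, Kif19a kept its direction in each and its call in 13, and no kinesin gene was called higher in any of them. The fit with the replicate block and the fit without CT replicate 4 share their fold changes, so these alternatives are not independent. The count of kinesin genes called lower was 1, 2 on the deposited normalized counts (with Kif21a, at -0.49) and 0 to 2 when 1 sample was left out: 0 without CT replicate 3 (Kif19a at -0.63) or cMU replicate 3 (Kif19a at -0.63), and 2 without cMU replicate 2 (Kif21a at -0.43). The median of the transport genes was 0.03, but -0.043 on normalized counts and -0.011 after rescaling by the median of ratios. Kif2a turned to -0.021 on normalized counts and -0.0037 with quantile normalization, and Kif22 to 0.000081 with the replicate block and ran from -0.15 to 0.077 without single samples. In 58 of 607 pairs of member and alternative the sign turned, none with a call, and 25 of 41 members kept it throughout. The count over all genes was 363, 95 without a filter on low values, 1159 with the replicate block, and 6 to 907 when 1 sample was left out: 60, 15, 6 and 117 without CT replicates 1 to 4 and 186, 907 and 6 without cMU replicates 1 to 3. The block changed no other call of a kinesin gene. The filter of 1 FPKM in all samples left 33 members. The planned edgeR and DESeq2 tests were not run, since whole reads could not be recovered. With 4 against 3 mice no single exact permutation test can go below 0.0571.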
